A study of Homo sapiens with 4 samples.

Results

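The 10 genes followed here encode parts of elastic fibres and microfibrils, and they were measured in CD31+ cells with and without overexpression of the transcription factor HAND1. They were FBN1 and FBN2 (the fibrillins), LTBP1, LTBP2, LTBP3 and LTBP4 (the latent TGF-beta binding proteins), ELN (elastin), FBLN5 and EFEMP2 (fibulin-5 and fibulin-4) and LOX (lysyl oxidase). The genes were chosen by name, with earlier results of these data known. Each of the 10 had a single row among the 58229 genes of the deposited table. Of these, 9 passed the filter for testing, among 14622 genes in all, and FBLN5 did not. RNA was sequenced from CD31+ cells at day 8 of hematopoietic differentiation of H1, a widely used human embryonic stem cell line. Cells went through 2 days of activin A and BMP4 and then VEGF and bFGF, and all groups shared this treatment. The Control group (2 libraries) carried no HAND1 overexpression and the HAND1_OE group (2 libraries) did. The study asked with these cells whether HAND1 holds up mesenchymal genes and holds back blood formation when it is expressed before endothelial cells turn into blood progenitors. Its scheme shows doxycycline as the switch for HAND1, but the labels do not say whether Control cells received doxycycline or carried a vector, so an effect of either and that of HAND1 cannot be told apart. The labels do not say whether the line was 1 clone, and they do not say that replicates came from separate cultures, so p-values measure the spread between these libraries, which may be technical.

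Elastic fibres let vessels, lungs and skin recoil after stretching. Fibrillins polymerise into microfibrils, elastin is laid down on them with the help of fibulins, and lysyl oxidase crosslinks it. LTBPs bind fibrillins and, apart from LTBP2, hold latent TGF-beta in the matrix, so that the same fibres store a growth factor that is known to act on endothelial cells as they become blood cells.

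The values were taken to be FPKM, fragments scaled to transcript length and library depth, so levels may be compared between genes. FPKM need not add up to the same total in every library. The totals were 6.066e+05 and 5.363e+05 in Control 1 and 2, and 5.789e+05 and 5.456e+05 in HAND1_OE 1 and 2. Comparisons between libraries therefore depend on the scaling, and results with other scalings are given at the end. HAND1 itself (ENSG00000113196.2) was at 12.1 and 14.3 FPKM in the Control pair against 520 and 517 FPKM in the HAND1_OE libraries, 39.3-fold higher by the means (adjusted p = 0.00145 in limma). The libraries held between 13989 and 14542 genes at 1 FPKM or more. Their relative depth, read from low values, was 1, 0.988, 1.19 and 1.03 for Control 1, Control 2, HAND1_OE 1 and HAND1_OE 2. All 12 endothelial markers were at 1 FPKM or more in every library, and PECAM1, which encodes CD31, was at 95.5 and 141 FPKM in Control against 92.0 and 160 FPKM in HAND1_OE. Log2 differences below are HAND1_OE minus Control on log2(FPKM + 1), with the standard error from limma, and adjusted p-values are those of limma over all 14622 genes. Over all of these genes the median log2 difference was -0.08.

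The 2 genes that rose, FBN1 and LTBP2, are shown first by the sequence before their start sites, since HAND1 is a basic helix-loop-helix protein and this class binds the E-box CANNTG. The bases are from RefSeq on GRCh38.p14, read 5′ to 3′ along the strand of the gene, and capitals mark an E-box. The FBN1 window is chr15:48644971-48645220 on the minus strand, directly before the RefSeq start site, and its single E-box began 132 bases before that site. This window lies inside the annotated FBN1 gene, which runs to 48645849, so an annotated transcript starts further upstream. The LTBP2 window is chr14:74612379-74612487 on the minus strand, the part of the 250 bases before the start site that holds no exon annotated in GENCODE, and its single E-box, of the form CATCTG, began 217 bases before that site.
FBN1: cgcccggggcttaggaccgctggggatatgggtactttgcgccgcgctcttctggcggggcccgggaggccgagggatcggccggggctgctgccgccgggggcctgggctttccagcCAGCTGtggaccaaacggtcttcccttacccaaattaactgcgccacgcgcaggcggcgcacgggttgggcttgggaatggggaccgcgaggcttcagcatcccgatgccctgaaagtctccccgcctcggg
LTBP2: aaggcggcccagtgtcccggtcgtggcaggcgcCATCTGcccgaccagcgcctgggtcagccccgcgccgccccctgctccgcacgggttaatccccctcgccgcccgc
An E-box is a common word: CANNTG, searched on both strands, was in 61.8% of 34943 windows of 250 bases before RefSeq start sites, and CATCTG, which is one form of CANNTG, in 12.2%. The 9 genes of the set in the RefSeq table (all but ELN) had 16 windows, of which 10 held CANNTG, a share near that of all windows, and 4 held CATCTG. These letters are a description of the sequence, and no binding was measured in these libraries. An E-box was not particular to the genes that rose. Windows of 7 of the 9 members held one, among them FBN2, LOX, LTBP1, LTBP3 and LTBP4, none of which passed the test. The form seen before LTBP2 was in windows of 3 members, LTBP1, LTBP2 and LTBP3, and was absent from the FBN1 window. Whether an E-box bears on the rise of FBN1 or LTBP2 was not tested.

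Of the 9 tested genes, 2 rose in HAND1_OE and 1 fell at an adjusted p under 0.05. Over all genes tested 2.04% rose and 2.11% fell, 4.16% in either direction. The HAND1_OE and Control libraries did not overlap for 5 of the 9 (FBN1, LTBP1, LTBP2, LTBP4 and ELN), whereas groups that did not overlap made up 46.3% of all genes tested. The median log2 difference of the 9 was -0.05. The calls depended on the filter, since none of the 10 genes passed when all 29860 genes above 0 were tested (lowest adjusted p = 0.153 in limma, for LTBP2). In bulk RNA fewer cells of a type and less RNA per cell cannot be told apart. The set therefore did not move as a block: a fibrillin and an LTBP rose, elastin fell, and the remaining members were either apart in their libraries without passing the test or overlapped.

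**Figure D1:**
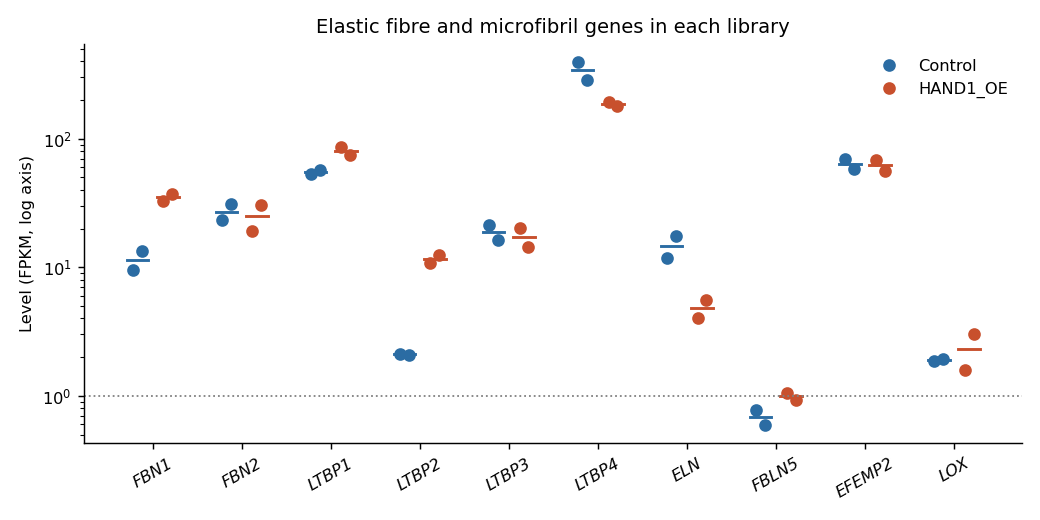
Level of each of the 10 genes in the 4 libraries (FPKM, log axis), with Control and HAND1_OE in separate colours, a bar at each group mean and a dotted line at the 1 FPKM used for testing. FBN1 and LTBP2 lie higher in both HAND1_OE libraries, ELN and LTBP4 lie lower, and FBLN5 stays near or under the line.

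FBN1, at 15:48408306-48645849 (GRCh38, minus strand), encodes fibrillin-1, the main fibrillin of adult microfibrils and the gene altered in Marfan syndrome. It was at 9.57 and 13.3 FPKM in the Control pair against 33.0 and 37.3 FPKM in the HAND1_OE libraries. Both HAND1_OE libraries were well above both Control libraries. The mean went from 11.4 ± 2.62 FPKM (SD, n = 2) to 35.1 ± 3.08 FPKM (SD, n = 2), a log2 difference of 1.55 (SE 0.198, adjusted p = 0.0199 in limma). That difference was above those of 98.9% of the genes tested. Without Control 1 it was 1.34 and no longer passed (adjusted p = 0.0560 in limma).

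FBN2, at 5:128257909-128659185 (minus strand), encodes fibrillin-2, which is best known from developing tissues. It was at 23.2 and 30.8 FPKM in Control against 19.2 and 30.8 FPKM in HAND1_OE. The groups overlapped, and the log2 difference was -0.13 with a 95% interval from -0.79 to 0.53 (adjusted p = 0.876 in limma). Within each library, FBN1 stood at 0.413 and 0.432 of the FBN2 level in Control and at 1.71 and 1.21 times the FBN2 level in HAND1_OE. The order of the 2 fibrillins was thus opposite in the 2 groups, with FBN2 the higher in both Control libraries and FBN1 the higher in both HAND1_OE libraries. As a share of both fibrillins FBN1 was 29.3% and 30.2% in Control and 63.2% and 54.8% in HAND1_OE.

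LTBP2, at 14:74498170-74612378 (minus strand), encodes the LTBP that binds fibrillin-1 but not latent TGF-beta. It was at 2.11 and 2.09 FPKM in the Control pair against 10.8 and 12.5 FPKM in the HAND1_OE libraries. The groups were far apart, and the Control libraries nearly equal. The mean was 5.53-fold higher in HAND1_OE, a log2 difference of 2.02 (SE 0.173, adjusted p = 0.00754 in limma), above those of 99.4% of the genes tested. It was the largest log2 difference among the 9 tested genes, and it passed with any one library left out. Leaving out a library leaves 1 sample in its group, which is then assumed to vary like the other group, here and wherever else a library is left out.

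LTBP1, at 2:32946972-33399509 (plus strand), encodes a carrier of latent TGF-beta that anchors it to fibrillin and fibronectin. It was at 52.9 and 56.6 FPKM in Control against 86.5 and 74.4 FPKM in HAND1_OE. Both HAND1_OE libraries were higher than both Control libraries, but the difference did not pass the test over all genes (log2 difference 0.54, SE 0.152, adjusted p = 0.143 in limma). LTBP3, at 11:65538805-65558930 (minus strand), encodes another carrier, known for its part in bone and teeth. It was at 21.4 and 16.2 FPKM in Control against 20.4 and 14.3 FPKM in HAND1_OE. These groups overlapped, with a log2 difference of -0.12 (95% interval from -0.69 to 0.45, adjusted p = 0.866 in limma).

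LTBP4, at 19:40592883-40629818 (plus strand), encodes the LTBP that also helps to place elastin on microfibrils through fibulin-5. It had the highest level of the 10 genes in every library, at 394 and 287 FPKM in Control against 194 and 179 FPKM in HAND1_OE. Both HAND1_OE libraries were lower than both Control libraries, by a mean of 0.549-fold. The log2 difference of -0.85 (SE 0.201) did not pass (adjusted p = 0.0939 in limma), although its 95% interval, from -1.35 to -0.35, did not reach 0. It did pass with quantile normalization (adjusted p = 0.0229 in limma) and with the values rescaled to TPM (adjusted p = 0.0452 in limma).

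The LTBP genes together summed to 470 and 362 FPKM in Control and to 312 and 281 FPKM in HAND1_OE. LTBP4 made up 83.7% and 79.3% of that sum in Control and 62.3% and 63.9% in HAND1_OE. LTBP1 made up 11.2% and 15.6% in Control and 27.7% and 26.5% in HAND1_OE. LTBP2, the LTBP with the largest fold difference, was 0.450% and 0.578% of the sum in Control and 3.46% and 4.46% in HAND1_OE. In every library LTBP4 thus stayed the most abundant LTBP, at 7.45 and 5.07 times LTBP1 in Control and at 2.25 and 2.41 times LTBP1 in HAND1_OE.

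**Figure D2:**
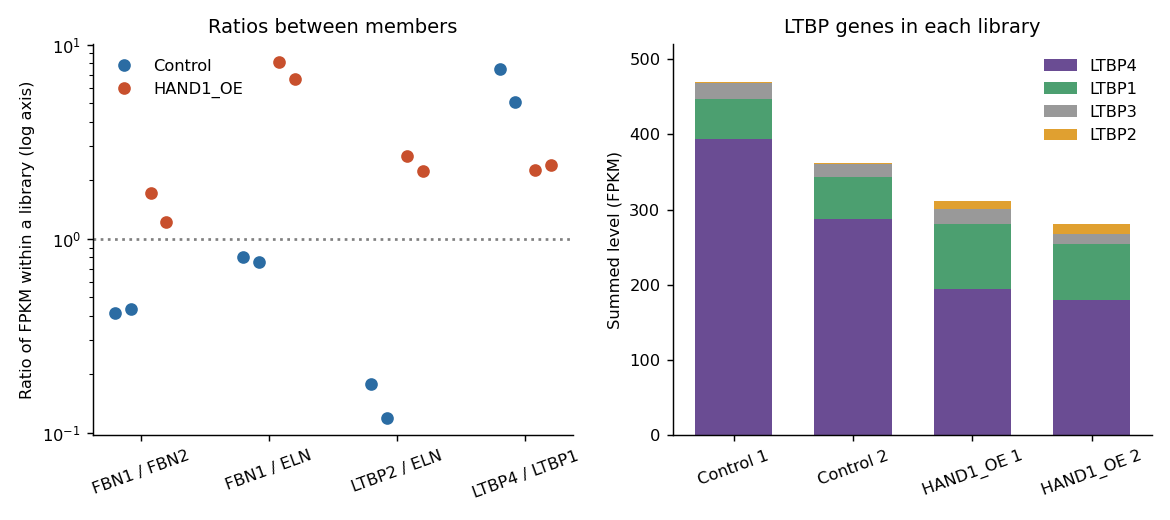
Left, ratios between pairs of genes within each library (log axis, dotted line at equal levels), with 2 points per group. Right, the summed level of the 4 LTBP genes in each library (FPKM), split by gene, where LTBP4 makes up 83.7% and 79.3% of the sum in Control and 62.3% and 63.9% in HAND1_OE.

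ELN, at 7:74027789-74069907 (plus strand), encodes elastin, the protein that gives the fibre its recoil. It was at 11.9 and 17.5 FPKM in the Control pair against 4.04 and 5.59 FPKM in the HAND1_OE libraries. Both HAND1_OE libraries were below both Control libraries, and the mean fell from 14.7 ± 3.98 FPKM (SD, n = 2) to 4.82 ± 1.09 FPKM (SD, n = 2). The log2 difference was -1.42 (SE 0.247, adjusted p = 0.0419 in limma), and 1.55% of the genes tested had a lower one. The call was lost under 6 of 15 alternatives. Without Control 2 the log2 difference was -1.16 (adjusted p = 0.132 in limma) and without HAND1_OE 1 it was -1.23 (adjusted p = 0.0644 in limma), and with median-ratio scaling it was -1.34 (adjusted p = 0.0546 in limma).

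Set against elastin within each library, both fibrillins, LTBP1, LTBP2 and LTBP3 stood higher in both HAND1_OE libraries than in either Control library. FBN1 was 0.805 and 0.759 of the ELN level in Control, just below it, and 8.15 and 6.67 times the ELN level in HAND1_OE. LTBP2 went from 0.178 and 0.120 of ELN to 2.67 and 2.24 times ELN. For FBN1 and LTBP2 the order with elastin was therefore opposite in the 2 groups. The ratio to ELN was higher too for genes that did not pass the test themselves. FBN2 was 1.95 and 1.76 times ELN in Control and 4.75 and 5.50 times in HAND1_OE. LTBP1 was 4.45 and 3.23 times ELN in Control and 21.4 and 13.3 times in HAND1_OE. LTBP4 differed from these, at 33.1 and 16.4 times ELN in Control and 48.0 and 32.1 times in HAND1_OE, ratios that overlapped between the groups. LTBP3 was 1.80 and 0.927 times ELN in Control and 5.03 and 2.56 times in HAND1_OE. Taken as the mean log2 level of the 6 fibrillin and LTBP genes minus that of ELN, the libraries were at 1.06 and 0.55 in Control and at 2.91 and 2.56 in HAND1_OE, a difference of 1.93 that is given as a description without a test. Most of it came from ELN, whose log2 difference was -1.42, while the mean of the 6 genes differed by 0.50. FBN2 and LTBP3, whose own log2 differences were -0.13 and -0.12, stood higher only relative to the lower ELN.

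**Figure D3:**
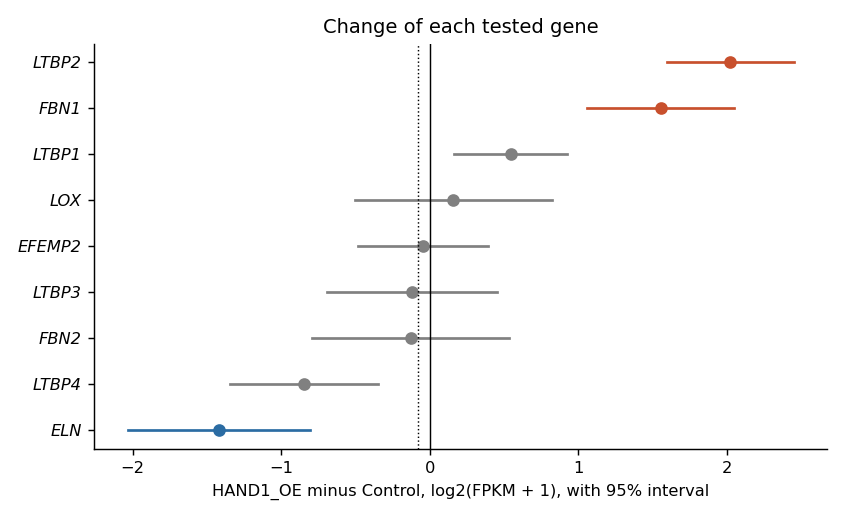
Log2 difference of each of the 9 tested genes (HAND1_OE minus Control, log2(FPKM + 1)) with its 95% interval from limma, and a dotted line at the median of all genes tested. Coloured points passed an adjusted p of 0.05, with LTBP2 and FBN1 higher and ELN lower, and grey points did not.

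The genes that help to assemble and crosslink elastin did not pass the test. EFEMP2, at 11:65866441-65873592 (minus strand), encodes fibulin-4, which brings lysyl oxidase to elastin. It was at 69.8 and 58.1 FPKM in Control against 67.8 and 55.9 FPKM in HAND1_OE. Its groups overlapped, and the log2 difference of -0.05 had a 95% interval from -0.49 to 0.39. LOX, at 5:122063195-122078360 (minus strand), encodes the enzyme that crosslinks elastin and collagen. It was low, at 1.87 and 1.93 FPKM in Control against 1.59 and 3.04 FPKM in HAND1_OE, and the HAND1_OE libraries lay on both sides of Control (log2 difference 0.16, 95% interval from -0.50 to 0.82). FBLN5, at 14:91869412-91947987 (minus strand), encodes fibulin-5, which joins elastin to cells and microfibrils. It was at 0.777 and 0.593 FPKM in Control against 1.06 and 0.932 FPKM in HAND1_OE, and was left untested because a single library reached 1 FPKM.

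In the order of mean levels, Control ran from LTBP4 through EFEMP2, LTBP1, FBN2, LTBP3, ELN, FBN1, LTBP2 and LOX to FBLN5. HAND1_OE ran from LTBP4 through LTBP1, EFEMP2, FBN1, FBN2, LTBP3, LTBP2, ELN and LOX to FBLN5. Between Control neighbours, LTBP3 overlapped with ELN, and ELN with FBN1. Between HAND1_OE neighbours the overlap was that of FBN2 with LTBP3. FBN1 thus stood above FBN2 and LTBP3 in HAND1_OE alone, and ELN stood below LTBP2 there. The 10 genes summed to 587 and 484 FPKM in Control and to 438 and 414 FPKM in HAND1_OE, most of it LTBP4.

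The genes differ in build. FBN1 and FBN2 are long genes of up to 66 and 71 exons in a transcript, with longest annotated transcripts of 11756 and 11132 bases. ELN has 34 exons at most and a longest transcript of 3967 bases, and 34 annotated transcripts against 8 for either fibrillin. GC content of the transcript was 46.7% for FBN1, 57.2% for LTBP2, 61.6% for ELN and 66.7% for LTBP4. With the dependence of the values on length and GC content taken out of every library, FBN1 and LTBP2 still passed and ELN did not (log2 difference -1.30, adjusted p = 0.0706 in limma). LTBP3 and EFEMP2 lie 0.31 Mb apart on chromosome 11 and neither passed the test. The setting of strand in counting is not given in the sources used here, and several of the genes share some bases of exon with a gene on the other strand. LOX shared 2.5% of its exon bases with SRFBP1, which was at 2.28 to 2.73 FPKM, a level like that of LOX itself. ELN shared 2.5% with ELN-AS1, which was listed at 0 in every library.

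Among the marker lists of other cell types, the blood list fell as a whole and the others gave few calls. Of 12 blood markers, 10 were tested and all 10 fell, with a median log2 difference of -3.85, and their summed level was 877 to 1218 FPKM in Control and 48.7 to 66.8 FPKM in HAND1_OE. PTPRC, which encodes the blood cell antigen CD45, and MPO, a myeloid enzyme, were at or near 0 in all libraries. Of 11 fibroblast markers, 8 were tested and LUM and POSTN rose, with a median log2 difference of 0.89 over the 8. The summed level was 783 to 853 FPKM in Control and 1143 to 1174 FPKM in HAND1_OE. Within it, mean COL3A1 went from 129 to 283 FPKM and mean THY1 from 381 to 590 FPKM, and neither passed. The list did not move as a block, since COL1A2 (log2 difference -0.82) and COL1A1 (-0.23) were lower in both HAND1_OE libraries, also without passing. LUM lost its call without Control 1, and POSTN reached 1 FPKM in HAND1_OE alone. DPT was listed at 0 in Control and stayed under 0.1 FPKM in HAND1_OE. Of 10 smooth muscle and pericyte markers, 7 were tested and PDGFRB rose, while the median log2 difference over the 7 was 0.0063. The summed level was 322 to 339 FPKM in Control and 327 to 357 FPKM in HAND1_OE. MYH11, which defines mature smooth muscle, was at or near 0. Of the 12 endothelial markers VWF rose and 11 did not pass, with sums of 1953 to 2365 FPKM in Control and 2178 to 2387 FPKM in HAND1_OE. No tested gene of the cardiomyocyte list (5 of 8 tested) or the epithelial and pluripotent list (6 of 8 tested) passed. The part of these shifts in the levels of FBN1, LTBP2 and ELN was not tested.

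Around the 10 genes, other lists of the elastic fibre system were read from the same fit. Beside the counts in these short lists and in the marker lists, 2.04% of all genes tested rose and 2.11% fell. Of 13 other microfibril and elastin-binding proteins, 10 were tested, 0 rose and 2 fell, with a median log2 difference of -0.32. EMILIN1, a glycoprotein at the boundary of elastin and microfibrils, was at 21.3 and 19.9 FPKM in Control against 10.8 and 8.96 FPKM in HAND1_OE (log2 difference -0.99, adjusted p = 0.0370 in limma). MMRN1, a member of the EMILIN family found in platelets and endothelium, was at 35.5 and 22.8 FPKM in Control against 10.1 and 9.39 FPKM in HAND1_OE (log2 difference -1.46, adjusted p = 0.0354 in limma). In both genes the HAND1_OE libraries were below the Control libraries. EMILIN1 lost its call without Control 1, without Control 2 or without HAND1_OE 2, and MMRN1 without Control 1. Of 7 further lysyl oxidase and copper genes, 6 were tested and 0 passed, with log2 differences from -0.33 to 0.44.

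The ADAMTS and ADAMTSL proteins that bind fibrillin went both ways, with 2 of 8 tested genes higher and 2 lower (10 in the list). ADAMTSL3 was at 0.0863 and 0.0496 FPKM in Control against 7.09 and 5.09 FPKM in HAND1_OE (log2 difference 2.72, adjusted p = 0.00730 in limma). THSD4, also called ADAMTSL6 and known to promote fibrillin-1 assembly, was at 0.70 and 0.33 FPKM in Control against 4.75 and 6.16 FPKM in HAND1_OE (log2 difference 2.09, adjusted p = 0.0139 in limma). Both kept their call with any one library left out. ADAMTSL4, a fibrillin-1 binder of the eye's lens fibres, was at 5.35 and 6.08 FPKM in Control against 2.06 and 1.44 FPKM in HAND1_OE (log2 difference -1.29, adjusted p = 0.0340 in limma). ADAMTSL1 was at 2.67 and 2.19 FPKM in Control against 0.404 and 0.282 FPKM in HAND1_OE (log2 difference -1.35, adjusted p = 0.0338 in limma). The fall of ADAMTSL4 was lost without Control 1, Control 2 or HAND1_OE 2, and that of ADAMTSL1 when any one of the 4 libraries was left out. ADAMTSL3, THSD4 and ADAMTSL1 reached 1 FPKM in 1 group alone, so they could enter the test only by differing.

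Enzymes that process microfibril proteins or degrade elastin were mostly short of the threshold. Of 24 such proteases and inhibitors, 16 were tested, 2 rose and 0 fell, with a median log2 difference of 0.09, and MMP7, ELANE and PRTN3 were listed at 0 in every library. BMP1, a proteinase that trims procollagens, pro-lysyl oxidase and LTBP1, was at 15.7 and 15.4 FPKM in Control against 31.6 and 35.4 FPKM in HAND1_OE (log2 difference 1.06, adjusted p = 0.0250 in limma). MMP14, a membrane metalloproteinase, was at 435 and 442 FPKM in Control against 792 and 861 FPKM in HAND1_OE (log2 difference 0.91, adjusted p = 0.0444 in limma). The groups were apart in both genes. BMP1 lost its call without Control 1, Control 2 or HAND1_OE 2, and MMP14 when any one of the 4 libraries was left out.

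Among 15 TGF-beta ligands, receptors and latency partners, 14 were tested and 1 rose, with a median log2 difference of 0.12. SMAD3, which carries the TGF-beta signal to the nucleus, was at 5.40 and 6.68 FPKM in Control against 13.0 and 13.7 FPKM in HAND1_OE (log2 difference 1.03, adjusted p = 0.0379 in limma), a call lost when any one of the 4 libraries was left out. TGF-beta response genes were all tested (18 of 18), and 2 rose and 1 fell, with a median of -0.08. One of the 2 was LTBP2, which is in this list as well. TGFBI, a matrix protein named for its induction by TGF-beta, was at 36.7 and 26.7 FPKM in Control against 224 and 192 FPKM in HAND1_OE (log2 difference 2.69, adjusted p = 0.00700 in limma) and passed with any one library left out. JUNB, an AP-1 transcription factor, was at 232 and 223 FPKM in Control against 99.8 and 83.4 FPKM in HAND1_OE (log2 difference -1.31, adjusted p = 0.0174 in limma), and lost its call without Control 1 or Control 2.

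Most receptors and partners of the fibres did not pass. Of 11 integrins and elastin receptor genes 9 were tested, 1 rose and 1 fell, with a median log2 difference of 0.15. ITGA8, the alpha subunit of an integrin that binds fibronectin and latent TGF-beta, was at 3.75 and 3.63 FPKM in Control against 23.4 and 19.7 FPKM in HAND1_OE (log2 difference 2.26, adjusted p = 0.00700 in limma). ITGB3, the beta subunit that pairs with ITGAV on endothelium and with ITGA2B on platelets, was at 10.4 and 17.8 FPKM in Control against 0.803 and 0.695 FPKM in HAND1_OE (log2 difference -3.07, adjusted p = 0.00851 in limma). Both passed with any one library left out, and ITGB3 reached 1 FPKM in Control alone, so it too could enter the test only by differing. Its platelet partner ITGA2B was one of the 10 blood markers that fell. Of 8 proteoglycan and fibronectin genes 7 were tested and 1 rose, with a median of 0.34. FN1, fibronectin, on which microfibrils are assembled, was at 574 and 541 FPKM in Control against 1613 and 1267 FPKM in HAND1_OE (log2 difference 1.36, adjusted p = 0.0280 in limma), a call lost when any one of the 4 libraries was left out.

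**Figure D4:**
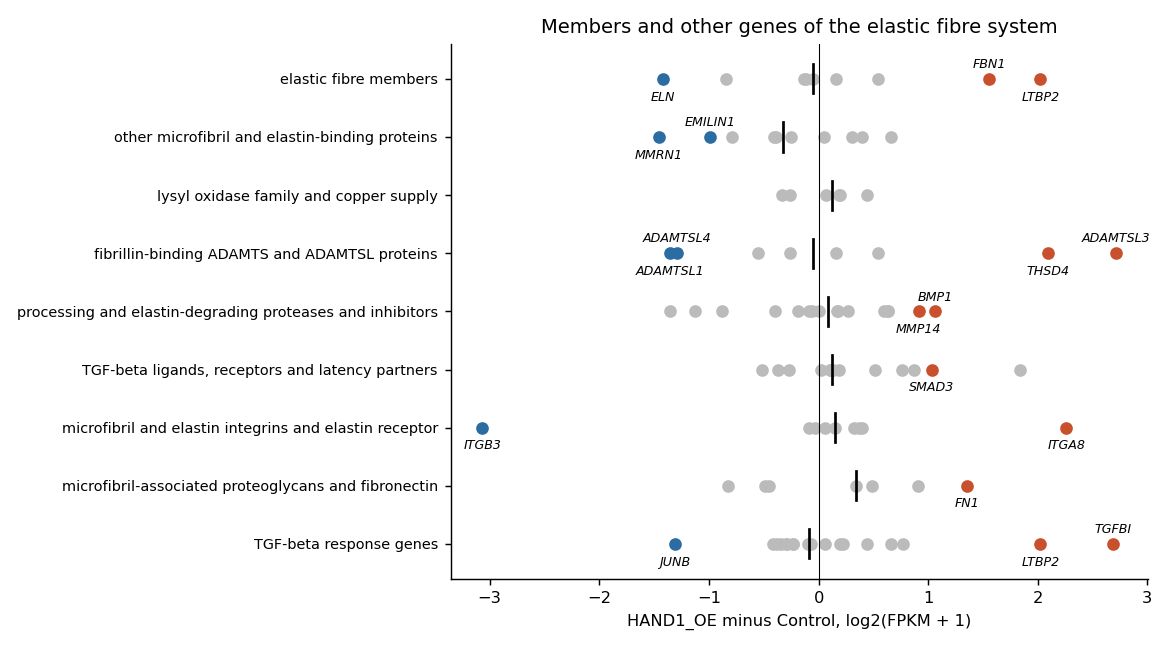
Log2 difference (HAND1_OE minus Control, log2(FPKM + 1)) of every tested gene in the set and in 8 related lists, with a bar at the median of each list. Coloured points passed an adjusted p of 0.05 in limma over all genes and are named, and each list but the lysyl oxidase and copper list holds at least 1 of them.

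The genes with a pattern most like that of FBN1 over the 4 libraries, by the distance between centred log2 values, were UNC5B-AS1 (distance 0.13), SLC46A3 (0.14), L1CAM (0.14), RASGRF1 (0.16) and PRSS35 (0.18), among 14622 genes. SLC46A3, a lysosomal membrane transporter, was at 7.79 and 10.5 FPKM in Control against 23.8 and 29.3 FPKM in HAND1_OE. L1CAM, a cell adhesion molecule, was at 1.03 and 2.07 FPKM in Control against 6.17 and 6.51 FPKM in HAND1_OE. Among the 5 genes most like ELN were EFHC2 (distance 0.04), CD55 (0.14), HRC (0.15) and AL159169.2 (0.19). CD55, which restrains complement, was at 12.8 and 17.6 FPKM in Control against 4.04 and 5.17 FPKM in HAND1_OE. CD55 passed the test (adjusted p = 0.0258 in limma), though not without Control 2. RASGRF1 reached 1 FPKM in HAND1_OE alone and HRC in Control alone, so these genes could enter the test only by differing. With 4 libraries in 2 groups, any gene with a difference of this size and a like spread stands near, so the likeness is a description.

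**Figure D5:**
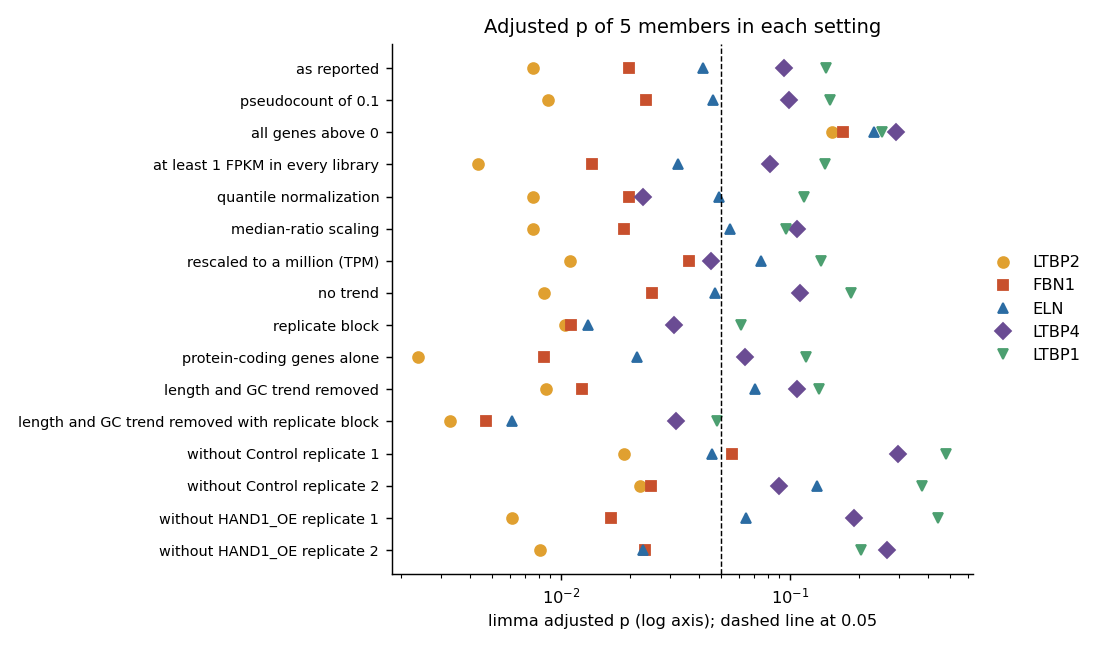
Adjusted p from limma (log axis, dashed line at 0.05) of LTBP2, FBN1, ELN, LTBP4 and LTBP1 as reported and under each alternative setting. LTBP2 stays left of the line except when all genes above 0 are tested, and FBN1 crosses it there and without Control replicate 1. ELN lies on both sides of the line, with a limma adjusted p from 0.00613 to 0.233.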

How the data were processed

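Libraries (2 Control, 2 HAND1_OE, grouped by their titles) were made with an Illumina TruSeq kit from total RNA. The authors deposited 1 table of values per gene and library, whose header names no unit. The deposited values were read as FPKM (fragments per transcript length and depth, computed by the authors), since expression in these cells is plotted as FPKM in the study. The submitters' processing notes name BWA, Bowtie, RSEM and the build hg19, without roles or versions, whereas 56550 of 57966 rows matched by ID have the coordinates of GENCODE release 29 on GRCh38. Positions here are those of the table, counted from 1. Of 58365 rows, 45 Y copies of pseudoautosomal genes and 91 further rows sharing a gene ID were left out. Each library had 667 to 681 values above 0 but under 0.0001 FPKM, so fragments were divided between genes by an estimate, and the files give no counts from which an interval could be made.

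Genes that reached 1 FPKM in 2 or more libraries were tested on log2(FPKM + 1) by limma (version 3.58.1, under R 4.3.3), using a mean-variance trend, two-sided, with Benjamini-Hochberg adjustment over all genes tested. The pseudocount of 1 understates changes of low genes. No exact permutation of 2 against 2 libraries can reach a p of 0.05. The script was also tested on simulated data, drawn with means and spreads taken from these libraries. The members and the lists were chosen with earlier results of these data known. Named genes are the members, HAND1, the called genes of each list (at most 4) and the 5 nearest profiles of FBN1 and ELN. A gene among the nearest profiles is not reported here. Other genes of the marker lists, ELN-AS1 and SRFBP1 were named after their values were seen. In the lists, 2 genes were found under the older symbols CTGF and CYR61. Promoter sequences are from RefSeq (GRCh38.p14). Alternatives were a pseudocount of 0.1, other filters, quantile and median-ratio scaling, rescaling to TPM, no trend in limma, a block for the replicate number and each library left out. Protein-coding genes alone and removal of the trend on length and GC content (99.8% of tested genes had both), with and without the block, were added after the data were seen.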

Additional observations from a re-analysis of the deposited data

How the results depend on the processing

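FBN1 and LTBP2 kept their rise and ELN its fall in direction under all 15 alternatives. LTBP2 kept its call in 14 of them (log2 difference 1.93 to 2.41, adjusted p 0.00238 to 0.153 in limma), FBN1 in 13 (1.34 to 1.77, adjusted p 0.00473 to 0.170) and ELN in 9 (-1.68 to -1.16, adjusted p 0.00613 to 0.233). When all 29860 genes above 0 were tested, limma called 0 genes higher and 0 lower, and 0 members either way, although 1458 genes were higher and 2352 lower by an unadjusted p under 0.05 (5 of 10 members). limma's prior degrees of freedom were then 1.32 in place of 3.61. ELN also lost its call with values rescaled to TPM (-1.47, adjusted p = 0.0750 in limma). The count of members lower was 2 with quantile normalization (ELN and LTBP4), 0 with median-ratio scaling and 0 with the length and GC trend removed. That last setting called 412 genes higher and 283 lower, against 299 and 309 as reported. Leaving out one library gave 134 to 266 genes higher and 137 to 309 lower, 1 to 2 members higher, 0 to 1 members lower, and 1.67 to 2.18 for the fibrillins and LTBPs relative to elastin, which was 1.85 to 2.16 under the other alternatives. Replicate numbers are shared between the groups, but the labels tie them to no batch and there are 2 pairs. Same-number deviations correlated at r = 0.383 over 14622 genes. Whether samples of the same number share more than that number is not known, and the calls as reported come from a fit without a block for it. With the replicate block limma called 597 genes higher, 712 lower and 2 members lower, LTBP4 (adjusted p = 0.0312 in limma) beside ELN, and the members higher stayed FBN1 and LTBP2. With the block and the length and GC trend removed the counts were 999 higher, 817 lower and 2 members lower, with LTBP1 joining the genes higher (adjusted p = 0.0480 in limma).

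Genes whose groups overlapped changed sign under some alternatives, with no call. EFEMP2 was at 0.0443 with median-ratio scaling, 0.0521 after removal of the length and GC trend (block or no block) and from -0.18 to 0.0885 with one library left out. LTBP3 was at 0.0629 after removal of that trend (block or no block) and from -0.36 to 0.12 with one library left out. With one library left out FBN2 ran from -0.45 to 0.20 and LOX from -0.16 to 0.48. The cause of these changes was not tested. With no counts, the depth behind low values such as those of FBLN5, LOX and the Control level of LTBP2 is unknown, and 2 libraries per group limit every estimate of spread.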
